A study of Mus musculus with 4 samples.

Results

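The stem cell transcription factor heptad is the set of 7 DNA-binding or bridging factors encoded by *Gata2*, *Runx1*, *Tal1*, *Lyl1*, *Lmo2*, *Erg* and *Fli1*. Its members were taken as every non-control array probe that the array's annotation names for 1 of these genes, which gave 10 probes of 41174 on the array and covered all 7 genes, of 28095 gene names in its annotation. RNA of LSK cells was measured in 2 pools of 6 mice per genotype, each pool on its own 1-color array of 60-base probes. LSK cells are bone marrow cells that lack lineage markers and carry Sca-1 and c-Kit, a gate that holds hematopoietic stem cells and multipotent progenitors. The Meis1-deficient mice were Mx1-Cre+ Meis1 fl/fl, in which exon 8 of *Meis1*, the exon for the homeodomain, is removed once Cre is induced. The controls were Meis1 fl/fl without Cre, so that both genotypes carried the floxed allele, on a C57BL/6J background. Mice were 4 to 8 weeks old when 4 injections of poly(I:C) at 1.5 ug/g were begun, and LSK cells were taken 1 week afterwards. The labels describe this injection for both genotypes, whereas the deposited design and the microarray methods call the controls sham-treated, so poly(I:C) and genotype cannot be told apart if the latter holds. The Mx1 promoter answers to interferon and is active in more than hematopoietic cells, and a pool of 6 mice gives no value for any 1 mouse.

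In blood stem and progenitor cells the heptad factors occupy many of the same enhancers. GATA, RUNX and ETS factors bind their own DNA words, the basic helix-loop-helix factors Tal1 and Lyl1 bind E-boxes together with E proteins, and Lmo2 touches no DNA itself but bridges these proteins. The genes are also active in other blood lineages and in endothelium, with *Gata2*, *Tal1* and *Lmo2* known for the erythroid and megakaryocyte branches. Meis1 belongs to the TALE homeodomain family, and the comparison asks whether transcripts of this shared network differ in LSK cells that have lost it.

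The probes decide which part of each transcript was read, and for 3 of the 7 genes there were 2 of them. All coordinates of probes are those of the array's annotation on mm9, and their placement in coding or untranslated sequence was not analysed here. The sequences of the *Runx1*, *Gata2* and *Fli1* probe pairs are shown because the members of a pair gave different readings below, and that of the *Lmo2* probe because its target is split in the genome. The *Runx1* probe A_52_P202358 (chromosome 16, minus strand, chr16:92614003-92644455) and the *Lmo2* probe A_51_P223686 (chromosome 2, plus strand, chr2:103816341-103821054) span 30453 and 4714 bases of genome with 60 bases, so each crosses an exon junction, and they are given whole. Of the others the first 30 bases are given.
Runx1 A_52_P202358: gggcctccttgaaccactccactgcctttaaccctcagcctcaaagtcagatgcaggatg
Runx1 A_51_P206585, chr16:92604413-92604472, minus strand: tgtgcatcgtgtcactgtaaatgtaatggt
Gata2 A_51_P516625, chr6:88156835-88156894, plus strand: ctagtacccgcataagagaagaatcggcag
Gata2 A_52_P233441, chr6:88156362-88156421, plus strand: aactgcataagcttaacccgctgatgagtg
Fli1 A_52_P821, chr9:32229857-32229916, minus strand: ttttcaggtaatcgtgactttttaaacgat
Fli1 A_51_P370600, chr9:32231283-32231342, minus strand: ttctggctgaagttccagctctcactttac
Lmo2 A_51_P223686: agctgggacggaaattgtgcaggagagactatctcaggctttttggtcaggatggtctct
The remaining genes had 1 probe each: A_51_P255853 for *Tal1* (chr4:114744223-114744283), A_51_P143190 for *Lyl1* (chr8:87228531-87228590), both on the plus strand, and A_51_P418519 for *Erg* (chr16:95581956-95582015) on the minus strand.

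Values below are log2 of the processed intensity minus the 75th percentile of the array, so that 0 is the level of a probe at that percentile. The genotypes were compared with limma over 22008 probes, those that 1 or both genotypes detected well above background in each of their pools. The study's criteria ask for an unadjusted p under 0.01 together with a change of over 2-fold. Over all tested probes, none had an adjusted p under 0.05, and 618 had an unadjusted p under 0.05. With the slide, shared by 1 array of each genotype, as a block, these counts were 34 and 1305. Because each pool is 1 sample, p-values measure only the spread between these pools, and with 2 arrays a genotype the smallest two-sided p of an exact permutation test is 0.333. The second Meis1-deficient array stood apart. It was the dimmest (75th percentile of 88.9 intensity units, against 144 to 151 on the others), and across probes its correlation with the others was 0.891 to 0.916, whereas those 3 gave 0.956 to 0.967 with each other. Values without it are therefore given for every heptad probe, and for other genes only where stated. Of the 2 *Meis1* probes, A_52_P670612 read 0.28 and 0.24 in Meis1-deficient LSK cells and 1.04 and 1.47 in controls, and A_52_P26195 read −2.44 and −3.52 against −1.52 and −1.04. Both were lower in both Meis1-deficient pools but neither passed the criteria (unadjusted p = 0.060 and 0.019). A_52_P26195 was not well above background on the second Meis1-deficient array and was tested only through the controls, so its p is conditional on their higher signal. With normexp background correction the log2 difference of A_52_P26195 was −0.27 (unadjusted p = 0.28) instead of −1.70. Where these probes lie relative to the removed exon was not analysed here. All 7 LSK markers examined, among them *Kit*, *Ly6a* and *Cd34*, were well above background on all 4 arrays.

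None of the 10 heptad probes passed the study's criteria, which 0.736% of all tested probes met. With the slide as a block the count was also 0, beside 1.93% of all tested probes. No heptad probe had an unadjusted p under 0.05 in limma, beside 2.81% of all tested probes. By the methods' t-test, 2 heptad probes did, those of *Tal1* and *Lmo2*, both under 2-fold, and so did 2.42% of all tested probes. All 10 were well above background on all 4 arrays. Their unadjusted p-values ran from 0.26 to 0.97, and their adjusted p-values from 0.983 to 0.997. By sign alone, 7 probes were lower in Meis1-deficient LSK cells and 3 higher, and 43.8% of all tested probes were lower. On 1 main probe per gene, the brightest, *Fli1*, *Lmo2*, *Gata2* and *Erg* lay below 0 and *Runx1*, *Lyl1* and *Tal1* above it. The median log2 difference of these 7 main probes was −0.022, beside 0.08 over all tested probes (0.061 and 0.16 with arrays scaled to their median). Their median absolute difference was 0.21, beside 0.36 over all tested probes, which include dimmer and secondary ones. On all 10 heptad probes, the median was −0.14 and the median absolute difference 0.31. The 95% intervals of all 10 probes held 0. The interval held a 2-fold fall for 7 probes and a 2-fold rise for 4, so for each probe a change of 2-fold in at least 1 direction lay within the error.

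**Figure D1:**
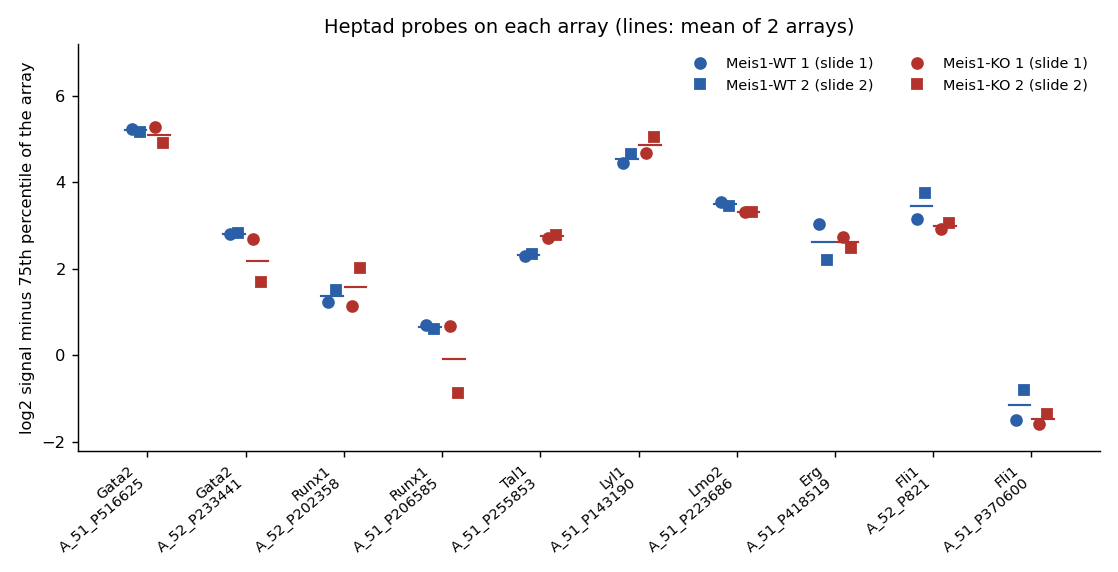
Log2 signal minus the 75th percentile of the array (vertical axis) for each of the 10 heptad probes on the 4 arrays, with circles for slide 1, squares for slide 2 and short lines for the mean of the 2 arrays of a genotype. The second Meis1-deficient array is low at the dimmer probes of *Runx1* (−0.87, with the other 3 arrays at 0.61 to 0.70) and *Gata2* (1.70, with the others at 2.68 to 2.82), and the 4 arrays lie closer together at *Lmo2* (3.31 to 3.54).

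*Gata2* encodes a zinc finger factor needed for the emergence and upkeep of hematopoietic stem cells. Its main probe, A_51_P516625, read 5.24 and 5.17 in the control pools and 5.27 and 4.92 in the Meis1-deficient pools. The first Meis1-deficient pool lay above both controls and the second below both, so the groups overlapped. Their log2 difference was −0.11 (SE 0.43, 95% interval −1.15 to 0.94, unadjusted p = 0.81), and it was 0.07 without the second Meis1-deficient array.

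The other *Gata2* probe, A_52_P233441, starts 473 bases from the first. It read 2.81 and 2.82 in the control pools and 2.68 and 1.70 in the Meis1-deficient pools. The controls were nearly equal and both Meis1-deficient pools lay below them, the first by little. The log2 difference was −0.62 (SE 0.50, 95% interval −1.84 to 0.60, unadjusted p = 0.26), the lowest p among the heptad probes. It was −0.13 without the second Meis1-deficient array, so that array carried most of it.

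*Runx1* encodes the DNA-binding subunit of core binding factor, which is required for definitive hematopoiesis. Its main probe, the junction-spanning A_52_P202358, read 1.24 and 1.52 in the control pools and 1.15 and 2.02 in the Meis1-deficient pools. The Meis1-deficient pools enclosed both controls. This gave a log2 difference of 0.21 (SE 0.49, 95% interval −0.99 to 1.40, unadjusted p = 0.69), and −0.23 without the second Meis1-deficient array.

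The second *Runx1* probe, A_51_P206585, read 0.70 and 0.61 in the control pools and 0.69 and −0.87 in the Meis1-deficient pools. Here 3 arrays lay between 0.61 and 0.70 and the second Meis1-deficient array alone was low. The log2 difference was −0.74 (SE 0.61, 95% interval −2.22 to 0.74, unadjusted p = 0.27), the farthest from 0 among the heptad probes, and it was 0.036 without that array. The 2 *Runx1* probes therefore differed in sign, and both signs turned when the second Meis1-deficient array was left out.

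*Tal1* encodes a basic helix-loop-helix factor that specifies blood in the embryo and acts in erythroid and megakaryocyte maturation in the adult. Its probe read 2.31 and 2.34 in the control pools and 2.72 and 2.79 in the Meis1-deficient pools. Both Meis1-deficient pools lay above both controls, and the spread within each genotype was small. Meis1-deficient minus control, the log2 difference was 0.44 (SE 0.42, 95% interval −0.58 to 1.45, unadjusted p = 0.34), which is 1.35-fold. It was 0.41 on slide 1, 0.46 on slide 2 and 0.40 without the second Meis1-deficient array. The *Tal1* readings themselves had an SD of 0.022 in controls and 0.052 in Meis1-deficient LSK cells (n = 2 each), and the standard error includes limma's shared estimate of the spread over all probes.

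*Lyl1* encodes the close relative of Tal1, with which it shares partners in adult stem cells. Its probe read 4.44 and 4.66 in the control pools and 4.68 and 5.05 in the Meis1-deficient pools. The Meis1-deficient pools lay above the controls, although the lower of them exceeded the higher control by very little. The log2 difference was 0.31 (SE 0.43, 95% interval −0.74 to 1.37, unadjusted p = 0.50), and 0.13 without the second Meis1-deficient array.

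*Lmo2* encodes the LIM-only adaptor that bridges Tal1 or Lyl1 and GATA factors and binds Ldb1. Its junction-spanning probe read 3.54 and 3.46 in the control pools and 3.32 and 3.31 in the Meis1-deficient pools. The groups did not overlap, with both Meis1-deficient pools lower. The log2 difference was −0.18 (SE 0.42, 95% interval −1.20 to 0.83, unadjusted p = 0.68), with −0.22 on slide 1, −0.15 on slide 2 and −0.18 without the second Meis1-deficient array. The direction was thus the opposite of that of *Tal1* and *Lyl1*, whose products it binds, but none of these differences passed the test.

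*Erg* and *Fli1* encode ETS factors of the same subfamily, both used in stem cells and megakaryocytes. The *Erg* probe read 3.05 and 2.22 in the control pools and 2.74 and 2.48 in the Meis1-deficient pools. The controls enclosed both Meis1-deficient pools, and the log2 difference was −0.022 (SE 0.48, 95% interval −1.20 to 1.16, unadjusted p = 0.97). It was −0.31 on slide 1 and 0.27 on slide 2, and the sign also turned without the second Meis1-deficient array (0.11) or without the first control array (0.39). Of all tested probes, 96.9% had a larger absolute difference.

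The main *Fli1* probe, A_52_P821, read 3.16 and 3.75 in the control pools and 2.93 and 3.06 in the Meis1-deficient pools. Both Meis1-deficient pools lay below both controls. The log2 difference was −0.46 (SE 0.45, 95% interval −1.55 to 0.64, unadjusted p = 0.35), a 1.37-fold lower level and the largest absolute difference among the 7 main probes at this scaling. With arrays scaled to their median it was −0.37, and *Tal1* (0.52) and *Lyl1* (0.40) were then farther from 0. Leaving out 1 array at a time, it stayed below 0 but ran from −0.75 without the first control array to −0.16 without the second, and was −0.52 without the second Meis1-deficient array.

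The second *Fli1* probe, A_51_P370600, had a spot signal only 1.89 to 2.61 times the local background. It read −1.50 and −0.80 in the control pools and −1.58 and −1.35 in the Meis1-deficient pools. The groups overlapped, and the log2 difference was −0.31 (SE 0.47, 95% interval −1.45 to 0.82, unadjusted p = 0.53). Leaving out the second Meis1-deficient array gave −0.43, and leaving out the second control array gave 0.040. On both slides, both *Fli1* probes were thus below 0, with neither past the test.

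**Figure D2:**
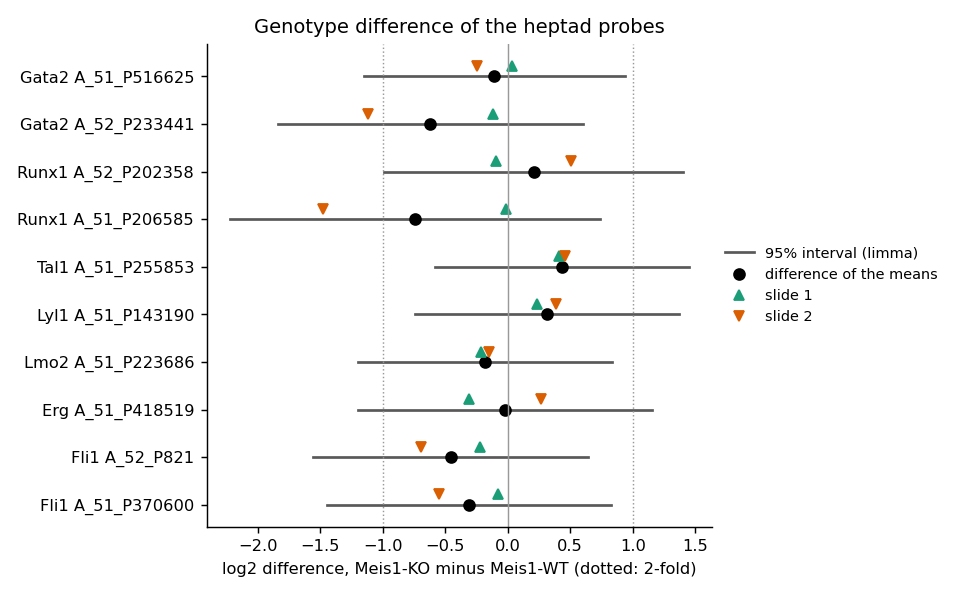
Log2 difference of Meis1-deficient minus control LSK cells (horizontal axis) for the 10 heptad probes, with black points for the difference of the means, bars for the 95% limma interval and triangles for the difference within slide 1 and within slide 2. Every interval holds 0, and slide 2 ranges from −1.47 to 0.50 whereas slide 1 ranges from −0.31 to 0.41.

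Within slides, which each held 1 array of each genotype, 7 of 10 heptad probes had the same sign on slide 1 and slide 2, of which 5 were lower and 2 higher. Over all tested probes, this share was 51.3%. The absolute difference was the wider one on slide 2, which held the second Meis1-deficient array, for 8 of 10 probes. The 2 genotypes did not overlap for 5 of 10 heptad probes, 3 lower (*Gata2* A_52_P233441, *Lmo2* and *Fli1* A_52_P821) and 2 higher (*Tal1* and *Lyl1*). Over all tested probes, 26.9% did not overlap, with 10.8% lower and 16% higher. Probes of the same gene are not independent counts.

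The gap between the 2 probes of a gene should stay the same on every array if both read the same RNA with the same efficiency, and subtracting 1 value per array does not alter it. For *Fli1* the gap on the log2 scale in Meis1-deficient LSK cells was 4.51 and 4.41, beside 4.66 and 4.55 in controls. This range of 0.25 was narrow, since 92.8% of the 4236 genes with 2 such probes had a wider one. For *Gata2* the Meis1-deficient LSK cells gave 2.59 and 3.22, and the controls 2.43 and 2.34, a range of 0.87 that fell to 0.24 without the second Meis1-deficient array.

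For *Runx1* the Meis1-deficient LSK cells gave 0.46 and 2.89, and the controls 0.54 and 0.91. The range of 2.43 was exceeded by 3.33% of genes and was 0.45 without the second Meis1-deficient array, whereas the median range over the 4236 genes was 0.85. The 2 *Runx1* probes lie farther apart in the genome than the other pairs, with starts 9590 bases apart, against 1426 for *Fli1*. The array's annotation lists them under different RefSeq transcripts, and the part of this in the gap was not tested. The second Meis1-deficient array was also the dimmest, and the part of that in the *Runx1* gap was not tested.

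**Figure D3:**
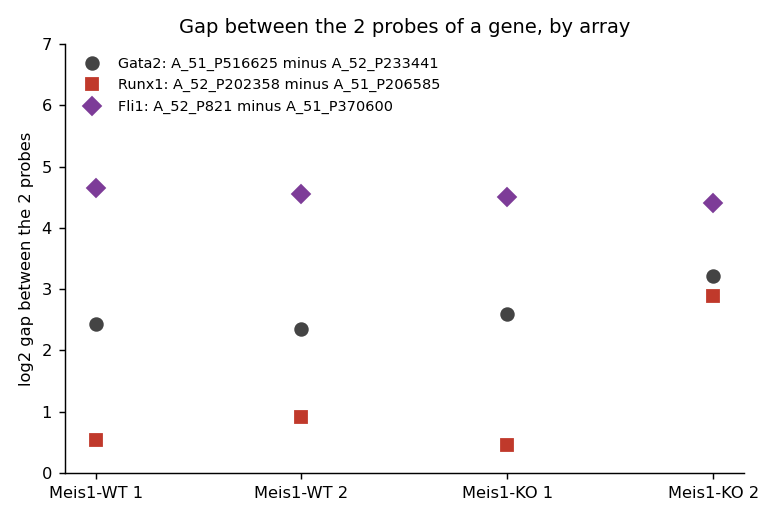
Log2 gap between the brighter and the dimmer probe of *Gata2*, *Runx1* and *Fli1* (vertical axis) on each of the 4 arrays. The *Fli1* gap stays between 4.41 and 4.66, while the *Runx1* gap is 0.46 to 0.91 on 3 arrays and 2.89 on the second Meis1-deficient array.

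The profile of *Fli1* A_52_P821, the heptad main probe with the largest absolute difference under the 75th percentile scaling, was set against those of 11063 other genes that were well above background on all 4 arrays, after centering each probe on its own mean. The nearest by Euclidean distance were *Tex261* (distance 0.032), *Wnk1* (0.071) and *Lrrc68* (0.079). All 3 had log2 differences close to that of *Fli1*, at −0.43, −0.41 and −0.48, and each was highest in the second control pool. The other heptad genes were farther away. *Lmo2* was the nearest of them at 0.56, with 1442 genes closer, and *Erg* the farthest at 1.13, with 7653 genes closer. Over 4 arrays such a ranking is a description only.

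The other genes of the network were taken from 3 lists. Cofactors and partners of the heptad gave 28 tested probes of 14 genes, among them the LIM-binding protein *Ldb1*, the E proteins *Tcf3*, *Tcf4* and *Tcf12*, the RUNX partner *Cbfb* and the Id inhibitors. None passed the criteria, and the median log2 difference of the main probes was −0.15. *Cbfb* had 0.54 (0.17 on slide 1 and 0.90 on slide 2) and *Ldb1* 0.08 (−0.06 on slide 1 and 0.21 on slide 2). The lowest value was that of *Cbfa2t3* (−0.76, SE 1.19), a corepressor bound by Tal1, which read 3.80 and 2.21 in the control pools and 4.02 and 0.46 in the Meis1-deficient pools. It turned to 1.02 without the second Meis1-deficient array. The highest was that of *Spi1* (0.66, SE 0.46), which encodes the ETS factor PU.1, with −0.07 and −0.25 in the control pools and 0.19 and 0.81 in the Meis1-deficient pools. The *Spi1* difference was 0.35 without the second Meis1-deficient array. A second probe of *Id2*, A_51_P219074, an inhibitor of E proteins, had a log2 difference of −1.11 (unadjusted p = 0.042), beside −0.60 at its main probe. It was chosen for mention after its value was seen.

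Relatives of the heptad genes gave 23 tested probes of 11 genes, of which none passed the criteria. Their main probes had a median of −0.05, with 6 lower and 5 higher, or 5 and 5 with a median of 0.04 over the 10 genes above background on all arrays. The lowest was *Runx3* A_52_P666059 at −1.08 (SE 0.84), which read −0.60 and −0.75 in the control pools and −0.47 and −3.04 in the Meis1-deficient pools and was 0.20 without the second Meis1-deficient array. The value of −3.04 came from the second Meis1-deficient array, where the probe was not well above background, so that it was tested only through the controls. The highest was *Lmo1* at 0.53 (SE 0.50), which was 0.31 without the second Meis1-deficient array, 0.97 without the first control array and 0.10 without the second. *Gata1*, which takes over from *Gata2* as erythroid and megakaryocyte cells mature, had a log2 difference of 0.12 (SE 0.69). It read −3.07 and −1.47 in the control pools, which enclosed the Meis1-deficient pools at −2.71 and −1.59. *Gata3* had 0.25 (SE 0.45). *Tal2* was not tested, being above background on 1 of 4 arrays.

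Genes with regulatory elements at which heptad factors are known to bind gave 13 tested probes of 12 genes, and none passed the criteria. The median of the main probes was −0.39, with 9 lower and 3 higher (43.8% of all tested probes were lower). *Eng* and *Csf1r*, 2 of the 9, entered the fit only through the controls, and the 10 genes above background on all arrays gave 7 lower and 3 higher. *Itga2b*, which encodes the platelet integrin CD41, was the lowest. It read −1.87 and −0.06 in the control pools and −2.69 and −2.53 in the Meis1-deficient pools, a log2 difference of −1.65 (SE 0.66, unadjusted p = 0.047, adjusted p = 0.98). This was −0.45 (unadjusted p = 0.28) with normexp background correction and −0.74 (unadjusted p = 0.40) without the second control array. The highest was *Nfe2*, a factor of platelet formation, at 0.41 (SE 0.55), which turned to −0.21 without the second Meis1-deficient array. *Kit* had −0.21 (SE 0.42) and *Cd34* 0.24 (SE 0.47), the latter with −0.31 on slide 1 and 0.79 on slide 2.

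**Figure D4:**
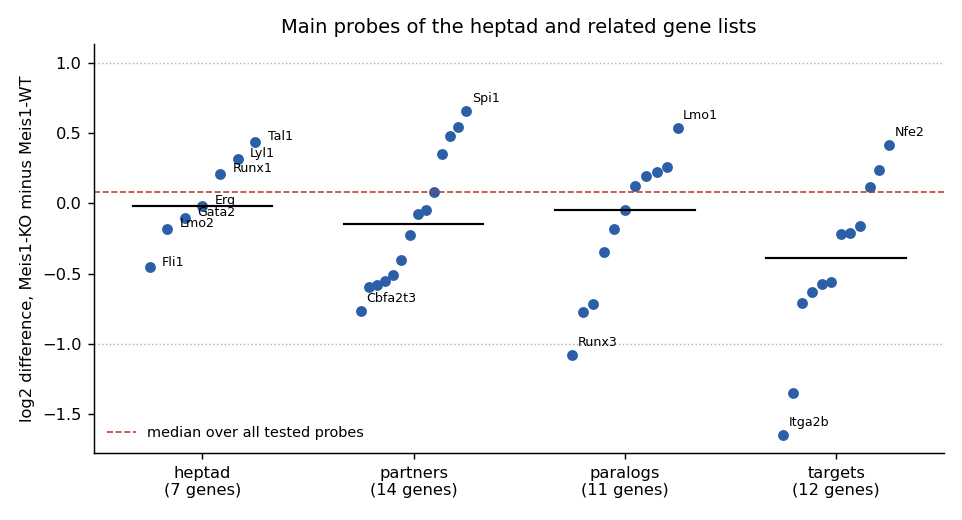
Log2 difference of Meis1-deficient minus control LSK cells (vertical axis) at the main probe of each tested gene of the heptad and of the 3 related lists, with black lines for the list medians, a dashed line for the median of 0.08 over all tested probes and dotted lines at 2-fold. The heptad lies between −0.46 and 0.44, and the lowest and highest values of the plot are *Itga2b* at −1.65 and *Spi1* at 0.66.

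In sorted pools, fewer cells of a type and less RNA per cell cannot be told apart, and several heptad genes are expressed in erythroid and megakaryocyte cells. Marker lists of other lineages were therefore read at 1 main probe per gene, as log2 differences and as linear signals relative to the 75th percentile summed over the list. The 8 tested erythroid genes were divided, 4 being lower without Meis1 and 4 higher, and *Alas2*, 1 of the lower, was tested only through the controls. *Rhag*, of the red cell membrane, was higher by 1.72 and passed the criteria. *Car1*, a carbonic anhydrase, had −1.77 (unadjusted p = 0.013) and passed with the slide as a block. The globin gene *Hbb-b1* had the highest difference (1.86, unadjusted p = 0.053), which was 0.25 on slide 1 and 3.47 on slide 2. Its other probes gave 1.99 to 2.07 (limma, unadjusted p = 0.049 to 0.079). The erythroid sum was 101 and 251 in the Meis1-deficient pools and 90.4 and 28.9 in the controls, most of it from *Hbb-b1*. Without that gene the sum was 5.91 and 3.54 in the Meis1-deficient pools and 9.87 and 6.56 in the controls. Main probes of 7 of the 9 erythroid genes were well above background on all 4 arrays.

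Of 7 tested megakaryocyte genes, 4 were lower and 3 higher. *Treml1*, a platelet granule protein, passed the criteria with −2.65, and *Itga2b* is described above. The highest was *Ppbp* with 0.22, which was 1.48 on slide 1 and −1.03 on slide 2. The sum over 8 genes, of which 7 were above background on all arrays, was 10.5 and 12.3 in the Meis1-deficient pools and 10.8 and 38.8 in the controls, so the second control pool alone was high, mostly through *Pf4*, the platelet factor gene, which read 4.88 there and 1.88 to 2.95 on the other arrays. Of 7 tested granulocyte and monocyte genes, 4 were lower (1 of them, *Csf1r*, tested only through the controls) and 3 higher. The elastase gene *Elane* passed the criteria with −1.58, whereas *Mpo* had 0.56 and *Ctsg* 0.92. The *Ctsg* difference was −0.0004 on slide 1 and 1.83 on slide 2, so it came from the slide with the second Meis1-deficient array. The granulocyte and monocyte sum over 8 genes, most of it from *Mpo*, was 139 and 115 against 116 and 59.0, so the genotypes overlapped. Of these genes, 6 were above background on all arrays and *Lcn2* on none.

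Of the B-lineage genes, *Vpreb1* and *Cd79b* were well above background on all 4 arrays and *Pax5* and *Igll1* on none. *Vpreb1*, of the pre-B receptor, read 3.38 and 2.77 in the Meis1-deficient pools and 3.99 and 2.60 in the controls, so the groups overlapped. No T-lineage gene of 6 was above background on all arrays, and *Cd3e* and *Cd3g* were on none. *Cd8a* and *Lck* were not well above background on the second Meis1-deficient array and entered the fit only through the controls, so no test of them is given. *Cd8a* read −3.56 and −3.27 in the Meis1-deficient pools against −2.02 and −2.13, and *Lck* −2.82 and −3.32 against −2.68 and −2.35. The T-lineage sum was 0.35 and 0.51 against 0.54 and 0.80. Of 6 endothelial genes, 3 were above background on all arrays and the defining *Cdh5* on none. Of the tested endothelial genes, *Pecam1* had the highest difference (0.93) and *Kdr* the lowest (−1.13). *Kdr* read −2.16 and −5.05 in the Meis1-deficient pools and −2.63 and −2.31 in the controls, so the second Meis1-deficient array, where it was not well above background, alone put it below 0. The endothelial sum was 5.86 and 3.58 against 4.04 and 3.99. The 7 LSK markers ranged from *Procr* at −0.34 (−0.74 on slide 1 and 0.07 on slide 2) to *Cd48* at 0.85 (0.05 and 1.64). None passed the criteria, and the sums were 112 and 128 against 127 and 94.3. The part of such cells in the heptad values was not tested.

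Promoter windows of RefSeq (GRCm38.p6, 250 bases before to 50 after a start) were at hand for *Erg*, *Gata2*, *Lyl1*, *Runx1* and *Tal1*, 10 windows in all. Words of the heptad's own families and of Meis factors were counted on both strands. The ETS word GGAA was in 10 of 10 windows (96% of all 32851 windows held it), the E-box CANNTG in 5 (72.3%), GATAA in 2 (25.4%) and the RUNX word TGTGGT in 1 (16.8%). The word TGACAG, which Meis proteins can bind, was in 1 window, of *Erg* (19.2% of all windows), with 2 matches at 242 and 208 bases before the start site. They are shown as the windows' only matches to this word, which is in capitals.
Erg, chr16:95459575-95459598, minus strand, word on the opposite strand: ggtgcagcCTGTCAcccagagtca
Erg, chr16:95459541-95459566, minus strand: acacctgctgTGACAGccccggcctc
A match describes the letters and is no binding site, and the array measured no binding.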

How the data were processed

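The authors deposited the spot intensities of 4 arrays as written by Agilent Feature Extraction (9.5.3.1 per the file headers, 9.1 in the submitters' processing notes), background-subtracted and detrended within each array. Their table of the series holds these intensities rounded, unscaled between arrays, and was an alternative here. Samples were grouped by their labels.

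Control spots and spots marked as outliers were dropped, replicate spots averaged as log2, and each array's 75th percentile subtracted. Probes detected well above background in each pool of 1 or both genotypes were tested with limma 3.58.1 in R 4.3.3, with Benjamini-Hochberg adjustment over 22008 probes. The code of the fit was run on simulated data with planted differences larger than any heptad difference. That check does not show its power for differences of the heptad's size. Replicate numbers mark the slide, as the files record, and deviations of arrays sharing a slide correlated at 0.266, so the slide served as a paired block in an alternative.

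The members, the lists and the rules were chosen with earlier results of these data known. The text names all 7 heptad genes and, of each other list, main probes past the criteria or under an unadjusted p of 0.05 and the lowest and highest tested, with further members for their role. The B-lineage list is not reported here in full. No spot was saturated, and a surrogate value stood in for 25.2% to 33.2% of spots, none of a heptad probe. Of 19897 RefSeq accessions, 18754 matched the gene table. Proteins, and promoter windows of *Lmo2* and *Fli1*, were not used here. The number of arrays limits precision.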

Additional observations from a re-analysis of the deposited data

How the results depend on the processing

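The number of heptad probes past the criteria stayed 0 under all 14 alternatives, the replicate block included. With the replicate block, 424 of all tested probes passed (162 without it), and no call on a heptad probe changed. Only 7 of the alternatives move a heptad difference by over 0.005, and under these 62 of 70 differences kept their sign. The exceptions were *Erg* (0.061 with median scaling), *Fli1* A_51_P370600 (0.034 with normexp correction) and those with an array left out. Leaving out each array in turn, *Erg* ranged from −0.44 to 0.39, *Fli1* A_51_P370600 from −0.66 to 0.040, *Gata2* A_51_P516625 from −0.28 to 0.068, *Runx1* A_52_P202358 from −0.23 to 0.65 and *Runx1* A_51_P206585 from −1.52 to 0.036. The median of the main probes was 0.061 with median scaling and −0.20 with normexp correction, and ranged from −0.15 to 0.068 with an array left out. Partner probes past the criteria ranged from 0 to 1 and those of relatives from 0 to 4, both highest without the first Meis1-deficient array, where 2362 of all tested probes passed. *Cbfa2t3* (−2.55 to 1.02), *Runx3* (−2.36 to 0.20) and *Nfe2* (−0.21 to 1.04) changed sign within these ranges. With an array left out, limma assumes that the lone array varies like the other genotype. Median scaling moved the median of all probes from 0.08 to 0.16. The lowest p of any heptad probe was 0.0083, for *Tal1* with the methods' t-test, under 2-fold, and the smallest with an array left out was 0.012, for *Runx1* A_51_P206585 without the first Meis1-deficient array.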
